A study of Mus musculus with 9 samples.

Results

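Interferon-stimulated genes and interferon-induced GTPases were followed in a culture of mouse podocytes, which are epithelial cells of the kidney's filter, the glomerulus. A list of 37 genes was taken by name, and each gene was read from the array probe set that carries its symbol alone, choosing the brightest where there were several. By this rule 35 of the 37 were measured, out of 22180 genes in all. Of these 35, 11 encode GTPases of the guanylate-binding protein (Gbp) and immunity-related GTPase (Iigp1, Irgm1, Irgm2, Igtp) families and 24 are other interferon-stimulated genes. Gbp2 shares its probe set with Gbp2b and Ifi44 had no probe set of its own symbol in the annotation used, so neither is among the 35.

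Every group was kept for 11 days at 37 °C to differentiate before treatment. Cells then received the vehicle DMSO, thapsigargin at 2.5 µM, or thapsigargin at that dose plus forskolin at 10 µM, each for 16 hours and each read on 3 single-colour arrays. Thapsigargin blocks the calcium pump of the endoplasmic reticulum and so causes ER stress, while forskolin switches on the enzyme that makes cAMP. No group received forskolin alone, so its addition was measured only in the presence of thapsigargin. The labels call the arrays biological replicates without saying in what they were separate, so p-values cover the spread between these arrays, which may be technical.

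Interferons are secreted proteins that act through receptors and Janus kinases on transcription factors. Type I interferon brings a complex with STAT2 and IRF9 to interferon-stimulated response elements (ISRE), while interferon gamma acts through gamma-activated sites (GAS) and raises IRF1, which itself binds ISRE-like sequences. The target genes include sensors of viral RNA, enzymes that act on viral RNA or nucleotides, the ubiquitin-like modifier ISG15, and GTPases that attack the membranes of vacuoles in which intracellular microbes live. Many cells, podocytes included, express some of these genes at rest.

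The upstream sequences of 7 members are shown because they hold ISRE or GAS letters, which some other members lack. They were also picked because neighbours among them, Igtp with Irgm2 and Ifit1 with Ifit3, moved differently on the arrays. Bases upstream of the RefSeq transcription start are given 5′ to 3′ on the strand of the gene (RefSeq, build GRCm38.p6), with matches on either strand in capitals. The ISRE core was searched as TTTC, any 2 bases and TTTC again, and GAS as TTC, any 3 bases and GAA. The windows are Igtp chr11:58199436-58199555 on the plus strand, Irgm2 chr11:58214857-58214976 plus, Ifit1 chr19:34640769-34640888 plus, Ifit3 chr19:34583369-34583528 plus, Isg15 chr4:156200819-156200938 minus, Irf1 chr11:53769894-53770013 plus and Gbp7 chr3:142530216-142530335 plus.
Igtp: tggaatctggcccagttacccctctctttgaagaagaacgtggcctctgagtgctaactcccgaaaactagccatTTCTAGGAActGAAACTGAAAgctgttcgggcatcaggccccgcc
Irgm2: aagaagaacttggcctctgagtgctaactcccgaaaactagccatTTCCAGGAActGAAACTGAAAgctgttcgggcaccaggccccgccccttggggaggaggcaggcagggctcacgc
Ifit1: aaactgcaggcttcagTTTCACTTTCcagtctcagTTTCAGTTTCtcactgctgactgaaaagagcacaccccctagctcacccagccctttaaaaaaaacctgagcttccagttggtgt
Ifit3: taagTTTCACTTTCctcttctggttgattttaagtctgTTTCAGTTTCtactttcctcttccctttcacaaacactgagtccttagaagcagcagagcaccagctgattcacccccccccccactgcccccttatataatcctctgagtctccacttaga
Isg15: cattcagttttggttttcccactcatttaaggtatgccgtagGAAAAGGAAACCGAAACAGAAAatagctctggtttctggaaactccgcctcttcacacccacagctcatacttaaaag
Irf1: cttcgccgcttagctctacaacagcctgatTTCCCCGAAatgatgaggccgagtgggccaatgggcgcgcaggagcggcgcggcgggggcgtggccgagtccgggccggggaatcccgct
Gbp7: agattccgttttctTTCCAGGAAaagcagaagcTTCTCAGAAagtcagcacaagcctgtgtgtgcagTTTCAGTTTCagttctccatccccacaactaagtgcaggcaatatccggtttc

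Igtp and Irgm2 lie next to each other, and their upstream sequences matched at 87 of 90 aligned bases (96.7%). Both hold a GAS match and, 2 bases further on, an ISRE core, starting 45 and 34 bases before the start of Igtp and 75 and 64 bases before that of Irgm2. Ifit1 and Ifit3, neighbours in the same gene cluster, each hold ISRE cores, starting at -104 and -85 in Ifit1 and at -156 and -122 in Ifit3. Isg15 holds 3 overlapping cores from -78 on, Irf1 a GAS match at -90, and Gbp7 GAS matches at -106 and -87 with an ISRE core at -53.

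A promoter window of 250 bases before to 50 bases after the start was found for 27 of the 37 genes. An ISRE core was present in 15 of these 27 (55.6%), against 3.99% of the 27025 genes with a window (3.44% of 32851 windows). GAS letters were present in 10 of 27, or 37%, against 9.55% of genes (8.3% of windows). The only overlap of the motifs was in Bst2, where GAS letters ran into an ISRE core. These matches are letters in a window and were not tested for binding. Among the 14 measured members with an ISRE core, 9 were called lower and 2 higher with thapsigargin, by the limma call defined below. Among the 11 with a window but no core, 8 were called lower and 1 higher, so members of both kinds fell. The shares of all genes called were 16.9% lower and 18.2% higher. The remaining 10 measured members, Dhx58, Gbp4, Gbp6, Gbp8, Gbp9, Gbp10, Iigp1, Mx1, Parp14 and Usp18, had no window in the table used.

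**Figure D1:**
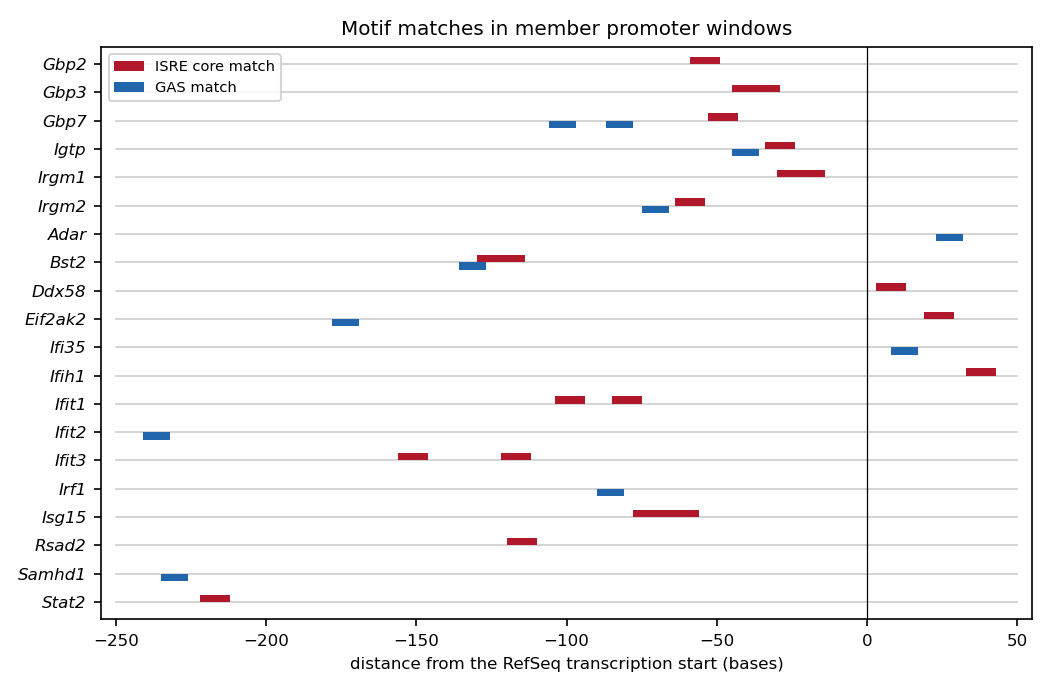
Positions of ISRE core matches (red) and GAS matches (blue) in the promoter windows of list members that hold at least 1; the x axis is the distance from the RefSeq transcription start in bases and each row is 1 window. Igtp and Irgm2 hold the same pair of matches, shifted by 30 bases, and Isg15 holds 3 overlapping ISRE cores.

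The arrays of a group were alike over all 41345 probe sets, with Pearson correlations from 0.989 to 0.993 within groups and from 0.966 to 0.992 between groups, and array medians lay between 5.80 and 5.88 on the log2 scale. The treatments left their known marks: the ER stress gene Ddit3 rose by 2.75 with thapsigargin and the cAMP-induced gene Nr4a1 rose by 3.22 when forskolin was added. Of 12 podocyte markers 9 were measured, and on DMSO arrays Plce1 (mean 11.2), Synpo (9.20), Podxl (8.46), Wt1 (6.80) and Nphs1 (6.55) lay above the array medians while Ptpro (5.35) lay below them. Averaged over the 9 arrays, 33 of the 35 members lay above every array's median. The mean of Mx1 lay below the medians and that of Gbp6 below every lower quartile. The means of Gbp4 with thapsigargin (5.61) and with both agents (5.59) also lay under the medians, as did Gbp8 on thapsigargin replicate 2 (5.47). DMSO replicate 1 was the lowest DMSO array for 25 of the 35 members (36.5% of all genes) and DMSO replicate 3 the highest for 24 (32% of all genes).

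Thapsigargin against DMSO asked how these transcripts differed with thapsigargin, and most of the family fell. Whether ER stress was the cause was not tested. Of the 35 members 23 were lower and 3 higher, where a call is a limma p below 0.05 after Benjamini-Hochberg adjustment over all 22180 genes. Over all genes 16.9% were called lower and 18.2% higher. The GTPases carried the largest falls, with 9 of 11 lower and 1 higher and a median log2 change of -1.13, against 14 of 24 lower, 2 higher and a median of -0.29 for the other members. The median over all genes was -0.04. A fall of at least 2-fold was called for 6 GTPases and 3 other members, and for 2.94% of all genes, while 0 members and 3.08% of all genes were at least 2-fold higher. The arrays of both groups stood apart for 25 members that were lower and 3 that were higher, against 22.3% and 21.6% of all genes.

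**Figure D2:**
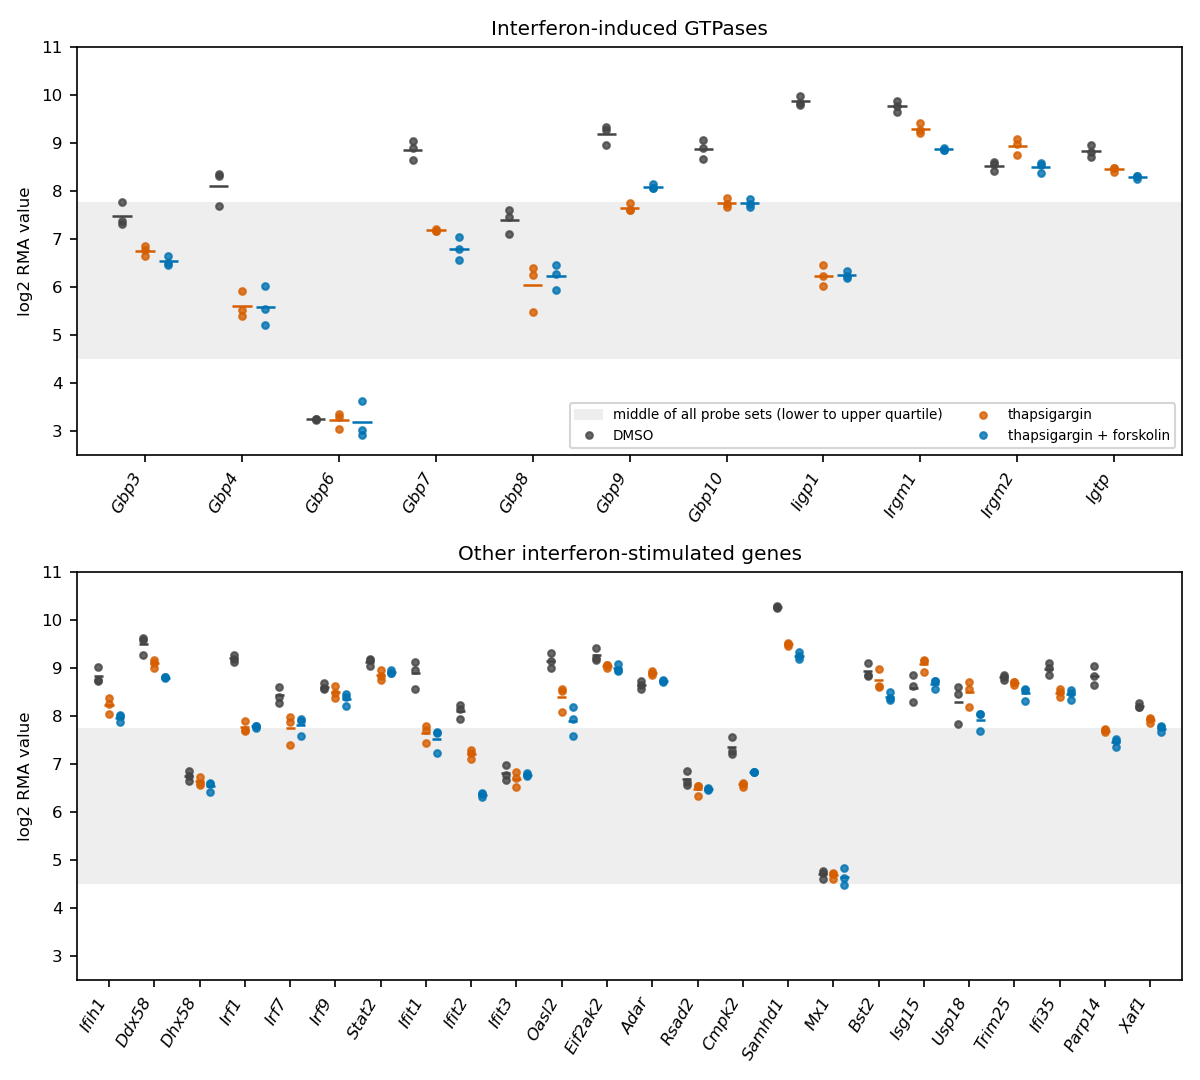
Log2 RMA value (y axis) of each measured member on each of the 9 arrays, GTPases above and other members below; points are arrays, short bars group means, and the grey band runs from the lowest lower quartile to the highest upper quartile of the arrays. For Iigp1 all DMSO arrays lie at 9.80 or above and all arrays with thapsigargin at 6.46 or below, while Gbp6 stays near 3 on every array.

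Iigp1, an immunity-related GTPase that acts on the vacuoles of intracellular parasites, fell furthest. It stood at 9.80, 9.98 and 9.84 on the DMSO arrays, at 6.46, 6.02 and 6.23 with thapsigargin, and at 6.18, 6.34 and 6.23 with thapsigargin and forskolin. The DMSO arrays were far above both other groups, which overlapped each other. The fall with thapsigargin was 12.4-fold (log2 change -3.64 ± 0.11 SE, limma adjusted p = 1.47e-08). In bulk RNA, fewer cells that express a gene and less of its RNA per cell cannot be told apart.

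The guanylate-binding proteins gather on pathogen vacuoles and bacterial surfaces. Gbp4 stood at 7.68, 8.35 and 8.30 on the DMSO arrays, at 5.39, 5.92 and 5.53 with thapsigargin and at 5.22, 5.54 and 6.02 with both agents. It fell 5.65-fold with thapsigargin (log2 change -2.50 ± 0.24 SE, limma adjusted p = 2.37e-05). Gbp7 stood at 8.65, 9.03 and 8.89 on the DMSO arrays and at 7.17, 7.17 and 7.21 with thapsigargin, a 3.19-fold fall (limma adjusted p = 4.34e-06). For both genes no thapsigargin array reached the lowest DMSO array. Gbp9 went from 8.96, 9.27 and 9.34 to 7.74, 7.60 and 7.62, a 2.90-fold fall (limma adjusted p = 1.28e-06).

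Gbp8, Gbp10 and Gbp3 fell as well, by 1.35 ± 0.24, 1.13 ± 0.10 and 0.73 ± 0.12 on the log2 scale, again with no overlap of the groups. Gbp6 lay between 2.93 and 3.62 on all arrays and was not called in any comparison. The probe set shared by Gbp2 and Gbp2b lay at 10.9, 11.1 and 11.2 on the DMSO arrays, at 7.55, 7.56 and 7.57 with thapsigargin, and at 7.11, 7.08 and 7.28 with both agents. Its difference of -3.51 from DMSO was close to that of Iigp1. When probe sets with several symbols were added to the fit, a choice made after seeing the data, this fall had a limma adjusted p of 5.26e-09. A probe set of Gbp2b alone had a mean of 6.65 on the DMSO arrays. It fell by 0.67 ± 0.16 with thapsigargin (limma adjusted p = 0.00804). Which gene the shared probe set read was not tested. Gbp4, Gbp6, Gbp8, Gbp9 and Gbp10 form one gene cluster and Gbp2, Gbp3 and Gbp7 another. Members of a cluster are similar in sequence and whether a probe set also reads a relative was not tested, so values of single Gbp genes are uncertain.

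The remaining immunity-related GTPases moved less and not all the same way. Irgm1, a regulatory member of the family, stood at 9.89, 9.66 and 9.76 on the DMSO arrays and at 9.41, 9.21 and 9.28 with thapsigargin, a fall of 0.47 ± 0.07 on the log2 scale (limma adjusted p = 0.000691). Igtp fell by 0.37 ± 0.07, from 8.71, 8.82 and 8.95 to 8.49, 8.47 and 8.41 (limma adjusted p = 0.00177). Irgm2, the neighbour of Igtp with nearly the same upstream sequence, rose from 8.41, 8.60 and 8.56 to 9.09, 8.99 and 8.76. Its log2 change was 0.42 ± 0.10 (limma adjusted p = 0.00626), and it was the only GTPase called higher.

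Among the transcription factors, Irf1 fell most. It stood at 9.29, 9.20 and 9.14 on the DMSO arrays, at 7.70, 7.72 and 7.90 with thapsigargin and at 7.76, 7.81 and 7.80 with both agents. The replicates lay close together, and the 2.70-fold fall had a limma adjusted p of 2.28e-07. Irf7, which amplifies type I interferon production, fell by 0.68 ± 0.16 and Stat2 by 0.28 ± 0.07, while Irf9, the DNA-binding partner of STAT2, differed by -0.11 ± 0.09 (limma adjusted p = 0.384). Of the cytosolic RNA sensors Ifih1, which encodes MDA5, fell by 0.61 ± 0.10 and Ddx58, which encodes RIG-I, by 0.40 ± 0.09. Dhx58, which encodes their relative LGP2, differed by -0.12 ± 0.08 (limma adjusted p = 0.302).

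The effectors that act on foreign RNA were split. Ifit1, which binds RNA lacking host cap methylation, stood at 8.58, 8.97 and 9.13 on the DMSO arrays, at 7.80, 7.71 and 7.44 with thapsigargin and at 7.66, 7.68 and 7.24 with both agents. It fell 2.37-fold with thapsigargin (limma adjusted p = 0.000245), with a gap between the groups. Ifit3, its neighbour with ISRE cores of its own, stood at 6.78, 6.68 and 6.99 against 6.52, 6.73 and 6.85, and the groups overlapped (log2 difference -0.12 ± 0.10, limma adjusted p = 0.409). Ifit3 has a near copy, Ifit3b, whose probe set fell by 1.13, and whether their probes were kept apart was not tested. The mean of Ifit3b was 4.93 on the DMSO arrays, under the array medians, and 3.81 with thapsigargin, under the lower quartiles.

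Ifit2 fell by 0.90 ± 0.08, from 7.95, 8.16 and 8.23 to 7.10, 7.23 and 7.31, without overlap (limma adjusted p = 2e-05). Oasl2, a relative of the oligoadenylate synthetases, fell by 0.77 ± 0.17. Eif2ak2, which encodes the RNA-activated kinase PKR, fell by 0.23 ± 0.08 (limma adjusted p = 0.0451). This last call was lost in 10 of 17 alternative fits, where its adjusted p ran up to 0.126. Adar, which encodes an RNA-editing enzyme that marks RNA as the cell's own, rose by 0.24 ± 0.06 (limma adjusted p = 0.00784), and its thapsigargin arrays at 8.90, 8.85 and 8.94 lay above the DMSO arrays at 8.58, 8.74 and 8.65.

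Of 5 other antiviral effectors 2 were lower and 0 higher. Samhd1, which breaks down deoxynucleotides, stood at 10.3 on all DMSO arrays after rounding and at 9.47, 9.51 and 9.52 with thapsigargin, a fall of 0.78 ± 0.05 (limma adjusted p = 2.19e-06). Cmpk2, a nucleotide kinase, fell by 0.77 ± 0.08, from 7.28, 7.22 and 7.56 to 6.53, 6.61 and 6.60 (limma adjusted p = 5.25e-05). Its neighbour Rsad2, which encodes viperin, differed by -0.21 ± 0.09 (limma adjusted p = 0.1). The membrane protein gene Bst2 differed by -0.19 ± 0.12 and the dynamin-like GTPase gene Mx1 by -0.03 ± 0.09, and neither was called. Parp14, an ADP-ribosyltransferase, stood at 8.66, 8.85 and 9.04 on the DMSO arrays and at 7.73, 7.67 and 7.70 with thapsigargin, a 2.21-fold fall (limma adjusted p = 7.8e-06). Ifi35 fell by 0.50 ± 0.08 and Xaf1, which encodes a partner of the apoptosis inhibitor XIAP, by 0.30 ± 0.06.

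In the ISG15 group of 3 genes 1 was called higher and 0 lower. Isg15 stood at 8.30, 8.64 and 8.86 on the DMSO arrays, at 9.16, 9.17 and 8.93 with thapsigargin and at 8.73, 8.73 and 8.57 with both agents. It rose by 0.49 ± 0.13 with thapsigargin (limma adjusted p = 0.0175), and the lowest thapsigargin array lay just above the highest DMSO array. The call was lost without thapsigargin replicate 1 (adjusted p = 0.0625) and without thapsigargin replicate 2 (adjusted p = 0.0612), with a range from 0.00376 to 0.0625 over the 17 alternatives. Usp18, the protease that removes ISG15 and blocks the type I receptor, ranged from 7.84 to 8.61 on the DMSO arrays and from 8.20 to 8.72 with thapsigargin (log2 difference 0.20 ± 0.21, limma adjusted p = 0.526). Trim25, the ubiquitin ligase that activates RIG-I, differed by -0.12 ± 0.07 (limma adjusted p = 0.255). Its thapsigargin arrays all lay below its DMSO arrays, and it was called lower under another quantile normalization, the one of 17 alternatives to do so (adjusted p = 0.0344).

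**Figure D3:**
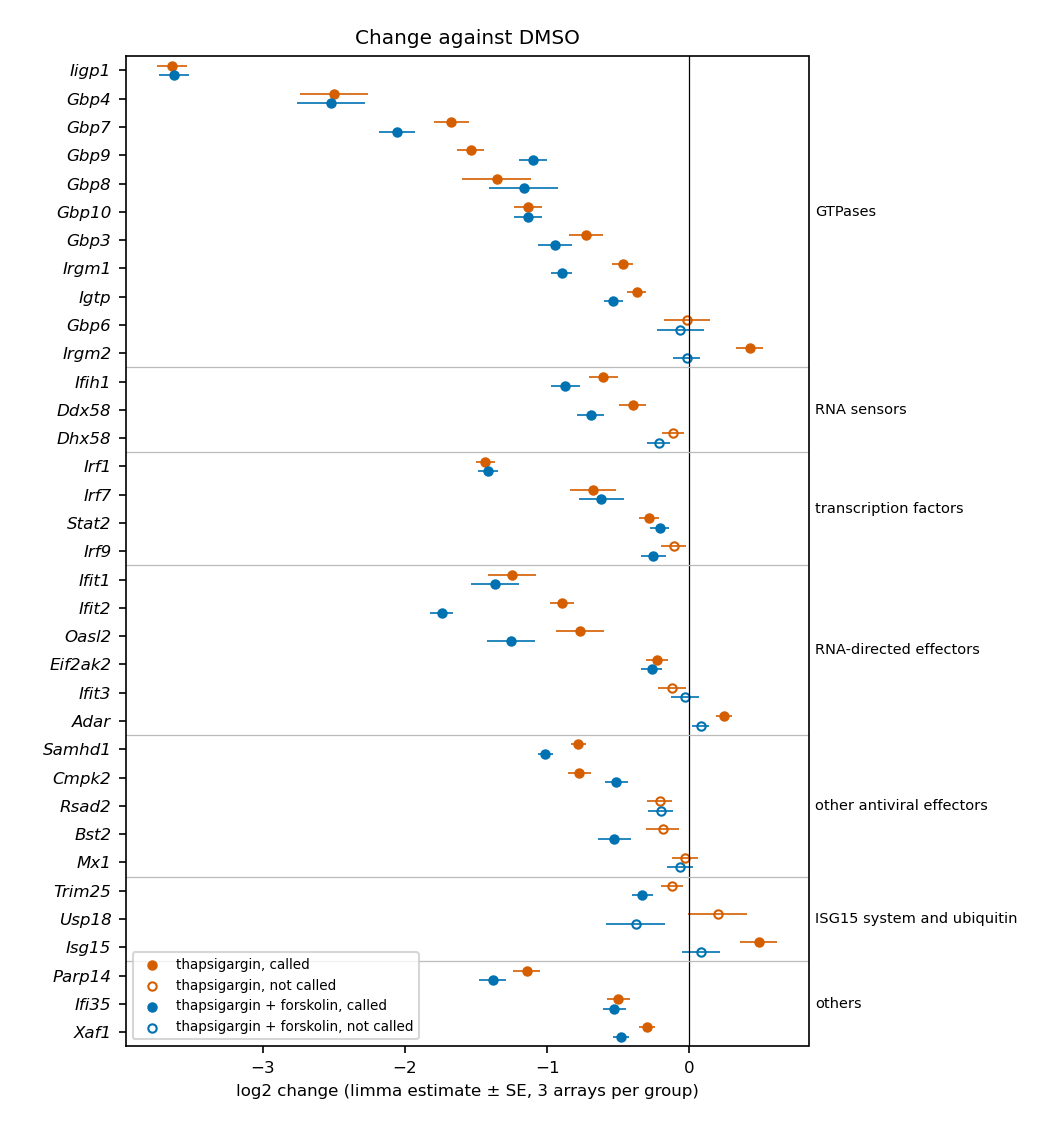
Log2 change against DMSO (x axis, limma estimate with its SE as a bar, 3 arrays per group) for each measured member, grouped by role; orange is thapsigargin, blue thapsigargin with forskolin, filled points passed the adjusted p of 0.05 and open points did not. Iigp1 lies near -3.6 in both comparisons, and Irgm2, Isg15 and Adar lie above 0 with thapsigargin.

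Genes around the family were read from lists drawn up by function. Of 25 genes of interferon signalling 23 were measured, and with thapsigargin 8 (34.8%) were lower and 5 (21.7%) higher, against 16.9% and 18.2% of all genes, with a median of -0.01. Cgas, the cytosolic DNA sensor, rose by 1.48 ± 0.11, while its adaptor Sting1 fell by 1.38 ± 0.09 (limma adjusted p = 3.71e-06 and 2e-06). The receptor chain gene Il10rb fell by 1.23 ± 0.07 and Socs3, a feedback inhibitor of cytokine receptors, by 1.23 ± 0.08. The interferon gamma receptor chain Ifngr2 fell by 1.18 ± 0.05, whereas Ifngr1 differed by 0.04 (limma adjusted p = 0.546). These receptor genes were named after their values were seen. Ifnb1, which encodes interferon beta, lay between 3.62 and 3.90 on all 9 arrays, under their lower quartiles of 4.53 to 4.59, and was not called in any comparison.

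Of 58 further interferon-stimulated genes 47 were measured. With thapsigargin 24 (51.1%) were lower and 3 (6.38%) higher, against 16.9% and 18.2% of all genes, with a median of -0.24. The nucleic acid sensor gene Zbp1 fell by 1.51 ± 0.10, the lysosomal thiol reductase gene Ifi30 by 1.31 ± 0.06 and the nuclear body gene Sp100 by 1.29 ± 0.13. The genes that rose were Ifi204 by 1.17 ± 0.17, Isg20 by 0.74 ± 0.06 and Mx2 by 0.38 ± 0.07. The count of risers depended on 1 array, being 6 without DMSO replicate 3.

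Markers of cell types were read beside these counts, and their part in these results was not tested. Of 12 macrophage and leukocyte markers 2 were lower with thapsigargin, Csf1r by 1.18 and Fcer1g by 0.25, and 0 higher. This is 16.7% of the list, near the 16.9% of all genes that were lower. The mean log2 value over that list lay between 6.01 and 6.17 on the DMSO arrays, between 5.84 and 5.89 with thapsigargin, and between 6.02 and 6.04 with both agents. Ptprc, which marks all leukocytes, lay between 3.62 and 3.87 on all arrays, under their lower quartiles. The DMSO means of Csf1r (7.98), Cd14 (7.97), Cd68 (7.94), Cx3cr1 (7.21) and Fcer1g (6.66) lay above the array medians. Those of Adgre1, Itgam, Lyz2, Tyrobp, Aif1 and Cd52 lay below them. Of 9 podocyte markers 5 were lower and 1 higher, and Plce1 fell by 3.45. Of 8 tubular markers 4 were lower and 0 higher, and Cdh16 fell by 3.37. Endothelial and mesangial lists had 2 of 8 and 2 of 6 markers lower and 0 higher. Without DMSO replicate 1, the array low for most members, 23 members were lower and 3 higher.

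**Figure D4:**
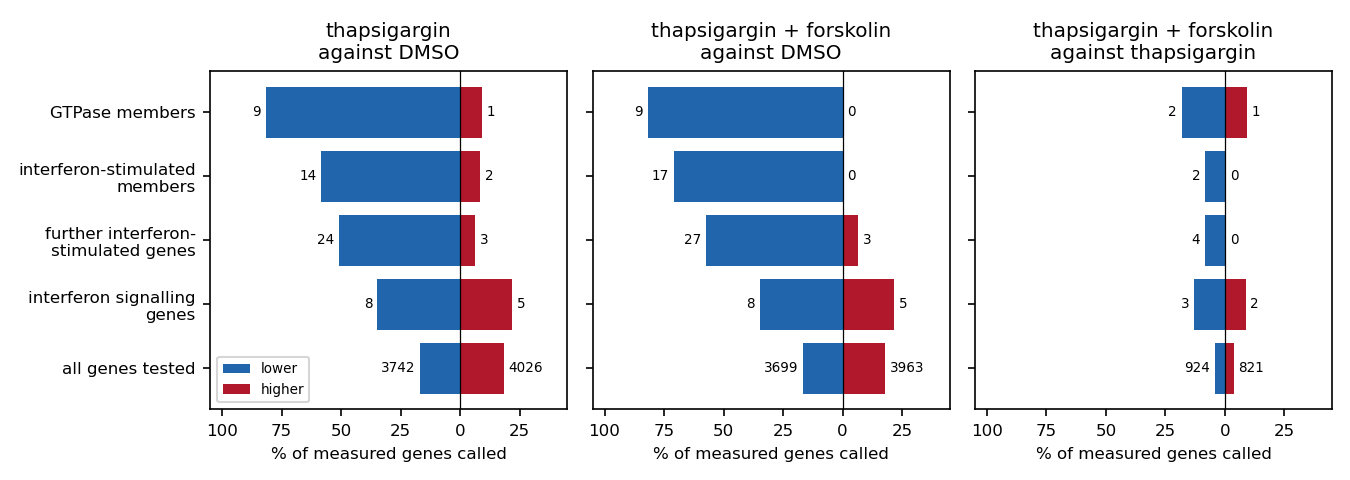
Share of measured genes called lower (blue, left) and higher (red, right) in each list, in percent, for the 3 comparisons; the number at each bar is the count of genes and the lowest row is all 22180 genes tested. With thapsigargin 9 of 11 GTPases and 14 of 24 other members were lower, against 16.9% of all genes.

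Thapsigargin with forskolin against thapsigargin asked what forskolin added. Of the 35 members 4 (11.4%) were lower, Ifit2, Irgm1, Irgm2 and Samhd1, and 1 (2.86%) was higher, Gbp9. Over all genes 7.87% were called, 4.17% lower and 3.70% higher. An unadjusted limma p below 0.05 in either direction was found for 18 members and for 4208 of all 22180 genes. No member changed 2-fold, against 0.131% of all genes lower and 0.271% higher. The median change was -0.05 over the GTPases, -0.15 over the other members and -0.01 over all genes. Groups did not overlap for 16 members that were lower and 2 that were higher, against 14.0% and 12.1% of all genes.

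Ifit2 moved most. Its values of 7.10, 7.23 and 7.31 with thapsigargin became 6.41, 6.38 and 6.31 with forskolin added, a further fall of 0.85 ± 0.08 (limma adjusted p = 0.000307). With its fall under thapsigargin alone it thus stepped down at each addition, and the 3 groups did not overlap. Its relatives Ifit1 and Ifit3 differed by -0.12 ± 0.17 and 0.09 ± 0.10, with overlapping groups and limma adjusted p of 0.78 and 0.732.

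Irgm1 also stepped down at each addition, from 9.41, 9.21 and 9.28 to 8.85, 8.86 and 8.90 (log2 change -0.43 ± 0.07, limma adjusted p = 0.00678). Irgm2 fell by 0.44 ± 0.10 to 8.58, 8.54 and 8.38 (limma adjusted p = 0.0219), and these values overlapped those of DMSO. Gbp9 rose from 7.74, 7.60 and 7.62 to 8.06, 8.14 and 8.06 (log2 change 0.44 ± 0.10, limma adjusted p = 0.0229) and remained below all DMSO arrays. Samhd1 fell by 0.23 ± 0.05 to 9.26, 9.20 and 9.33 (limma adjusted p = 0.0256).

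Several members with a deep fall under thapsigargin were not called here. Iigp1 differed by 0.01 ± 0.11 (limma adjusted p = 0.971), Gbp4 by -0.02 ± 0.24 (limma adjusted p = 0.979) and Irf1 by 0.02 ± 0.07 (limma adjusted p = 0.94). With thapsigargin alone their means were 6.24, 5.61 and 7.77, where array medians lay between 5.80 and 5.88. Whether a further fall of Iigp1 or Gbp4 could have been read at these levels was not tested. Gbp7 differed by -0.38 ± 0.12 and Cmpk2 by 0.26 ± 0.08, both without overlap of the groups and with limma adjusted p of 0.119 and 0.109. Cmpk2 held the same value, 6.84157, on all 3 arrays with both agents. Other genes held repeated values too. Gbp9 stood at 8.06334 on replicates 1 and 3 with both agents, and Ifngr1 at 10.7688 on all thapsigargin arrays. Why such values were identical was not tested. Isg15 and Usp18 differed by -0.41 ± 0.13 and -0.58 ± 0.21, and their 3 arrays with forskolin were all below the 3 with thapsigargin alone. These differences did not pass after adjustment (limma adjusted p = 0.119 and 0.159). Ddx58 differed by -0.30 ± 0.09, also without overlap (limma adjusted p = 0.106). Some alternative fits did call such members. Isg15 and Ddx58 were each not called in 13 of the 17 alternatives, Cmpk2 in 14 and Gbp7 in 15. The limma adjusted p went down to 0.0348 for Isg15 and 0.0133 for Ddx58. Usp18 was not called in any of the 17.

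Several of these calls were lost when 1 array was left out. Without thapsigargin replicate 1, or without thapsigargin replicate 2, 2 members were lower. No member was higher without thapsigargin replicate 2 or 3 or without any of the combined arrays, and 2 were without DMSO replicate 3. Ifit2 and Irgm1 were lower in all 17 alternative fits, with adjusted p up to 0.00272 and 0.0314. Gbp9 was lost in 5 of them, Samhd1 in 5 and Irgm2 in 4, with adjusted p up to 0.0882, 0.103 and 0.0834. Each of these losses came with 1 array left out, and different arrays did this. Over the 17 alternatives their log2 changes ran from 0.40 to 0.48, from -0.27 to -0.20 and from -0.54 to -0.37.

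**Figure D5:**
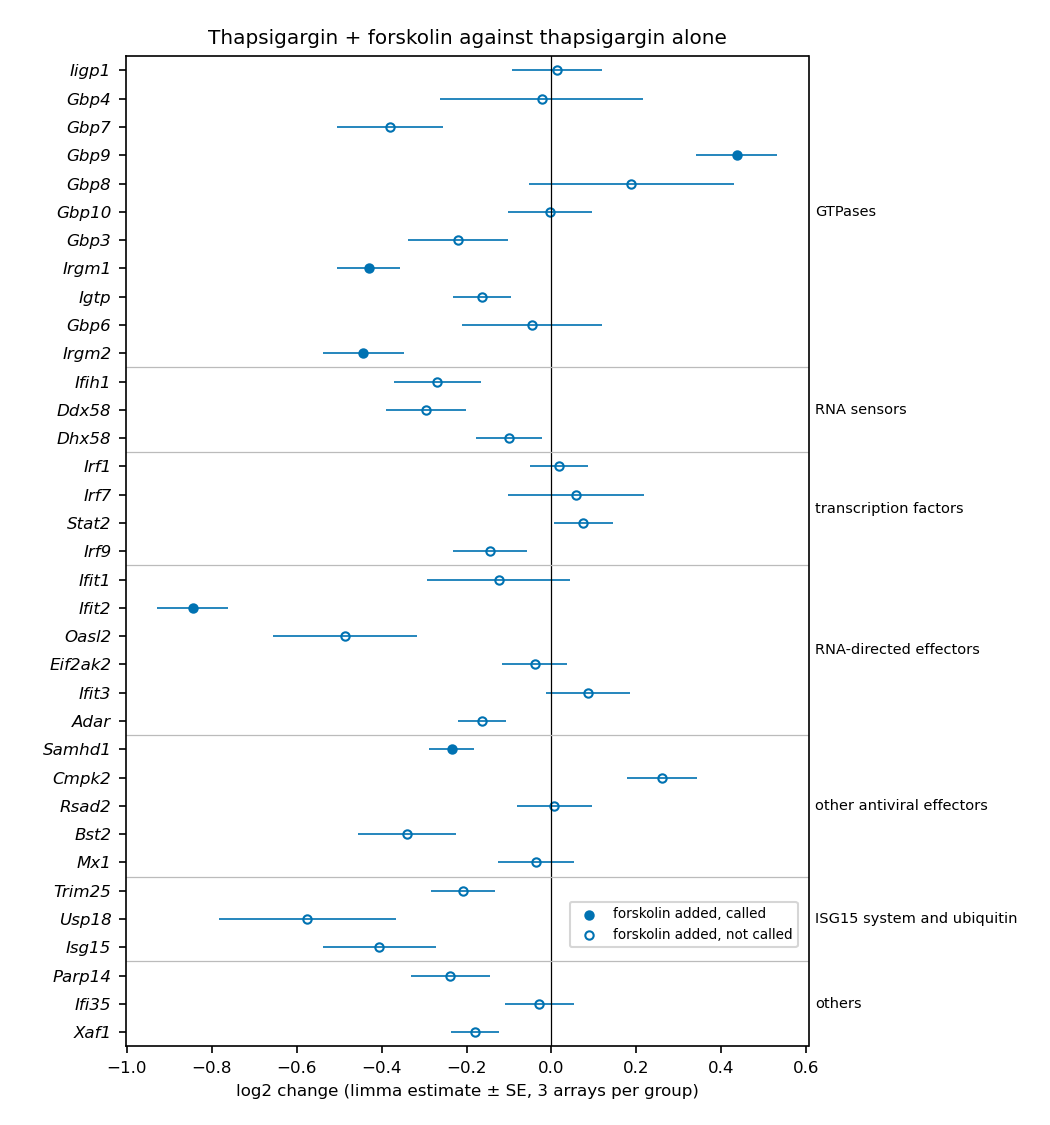
Log2 change from thapsigargin alone to thapsigargin with forskolin (x axis, limma estimate with its SE as a bar, 3 arrays per group) for each measured member, in the order of roles used above; filled points passed the adjusted p of 0.05 and open points did not. Ifit2 lies lowest at -0.85, Gbp9 is the one filled point above 0, and most members lie slightly below 0 without passing.

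Of 23 signalling genes 3 (13%) were lower and 2 (8.70%) higher, against 4.17% and 3.70% of all genes. Those lower were Cgas at -0.60 ± 0.11, Ifngr2 at -0.36 ± 0.05 and Mavs at -0.23 ± 0.06. Those higher were Socs3 at 0.36 ± 0.08 and the type I receptor chain Ifnar1 at 0.31 ± 0.05. Of 47 further interferon-stimulated genes 4 (8.51%) were lower and 0 higher, where 13 had an unadjusted p below 0.05 in either direction. The chemokine gene Cxcl10 fell by 1.95 ± 0.07, having differed by -0.05 with thapsigargin alone. Ifitm3, which blocks viral entry, fell by 0.48 ± 0.09, Ifi30 by 0.45 ± 0.06 and Parp9, a relative of Parp14, by 0.34 ± 0.07. Cell type markers moved at this step too, and their part in these results was not tested. Of 12 macrophage and leukocyte markers 2 were higher and 0 lower, Csf1r by 0.82 and Cd14 by 0.87. Of 9 podocyte markers 4 were lower and 1 higher, and Plce1 fell by 1.29. Of 6 mesangial and pericyte markers 2 were higher and 0 lower, and Mcam rose by 2.58. Tubular markers had 1 of 8 higher and endothelial markers 0 of 8 called in limma, with 1 at an unadjusted p below 0.05.

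Thapsigargin with forskolin against DMSO gave the joint change, with the same DMSO arrays as reference as for thapsigargin alone. Of the 35 members 26 were lower and 0 higher in limma (28 with an unadjusted p below 0.05, all lower), where 16.7% of all genes were lower and 17.9% higher. Among GTPases 9 of 11 were lower with a median of -1.10, and among the other members 17 of 24 with a median of -0.50. At least 2-fold lower were 6 GTPases and 6 other members, against 2.70% of all genes, and 0 members against 2.57% were at least 2-fold higher. Arrays stood apart for 28 members that were lower and 0 that were higher, against 21.2% and 21.4% of all genes. The members not called were Gbp6, Irgm2, Dhx58, Ifit3, Adar, Rsad2, Mx1, Isg15 and Usp18.

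Iigp1 was 12.3-fold below DMSO (limma adjusted p = 1.68e-08), Gbp4 5.74-fold (limma adjusted p = 2.48e-05) and Gbp7 4.16-fold (limma adjusted p = 1.27e-06). Gbp8 fell by 1.17 ± 0.24, from 7.11, 7.46 and 7.62 to 5.95, 6.28 and 6.47 (limma adjusted p = 0.00402). These GTPases had their whole range below the DMSO range. Ifit2 was 3.35-fold lower (log2 change -1.74 ± 0.08, limma adjusted p = 2.91e-07), Irf1 2.67-fold, Parp14 2.61-fold and Ifit1 2.58-fold. Oasl2, at 9.0, 9.16 and 9.32 on the DMSO arrays, lay at 8.19, 7.94 and 7.59 (log2 change -1.25 ± 0.17, limma adjusted p = 0.000278). Samhd1 fell by 1.02 ± 0.05 and Ddx58 by 0.70 ± 0.09, the latter from 9.27, 9.59 and 9.64 to 8.80, 8.81 and 8.81.

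Members called here but not with thapsigargin alone were Irf9 at -0.25 ± 0.09, Bst2 at -0.53 ± 0.12 and Trim25 at -0.33 ± 0.07. None of these passed the test of the combined arrays against thapsigargin alone (limma adjusted p = 0.437, 0.131 and 0.154). Irf9 (limma adjusted p = 0.0477) and Stat2 (limma adjusted p = 0.0415) were each lost in 8 of the 17 alternatives, with adjusted p up to 0.162 and 0.12. Isg15, Irgm2 and Adar, which were higher with thapsigargin alone, differed from DMSO by 0.08 ± 0.13, -0.02 ± 0.10 and 0.08 ± 0.06.

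In the signalling list 8 of 23 (34.8%) were lower and 5 (21.7%) higher, against 16.7% and 17.9% of all genes, with a median of -0.04. Among them were Sting1 at -1.71 ± 0.09, Ifngr2 at -1.53 ± 0.05, Il10rb at -0.98 ± 0.07 and Cgas at 0.88 ± 0.11. In the list of further interferon-stimulated genes 27 of 47 (57.4%) were lower and 3 (6.38%) higher, the latter again Ifi204, Isg20 and Mx2. Cxcl10 fell by 2.01 ± 0.07, Zbp1 by 1.86 ± 0.10, Ifi30 by 1.76 ± 0.06 and Sp100 by 1.48 ± 0.13. Of the macrophage and leukocyte markers 1 was lower and 1 higher, Csf1r by -0.35 and Cd14 by 0.97, and the range of the list's mean overlapped that of DMSO.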

How the data were processed

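The deposited table holds log2 values of 41345 probe sets on 9 single-colour arrays. The submitters' processing notes name affy and RMA, with no version; the authors' annotation and build are likewise not given in the sources. RMA makes the arrays' distributions alike, so changes are relative to the bulk of genes and a global change in RNA cannot be seen. Whether a probe set was above background could not be read from these values, and precision is limited by having 3 arrays per group.

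The annotation used pairs 23521 probe sets with 1 symbol, 1814 with several and 16010 with none. Per gene the probe set with 1 symbol and the highest mean over 9 arrays was kept, giving 22180 genes. The sample titles gave the groups. One model in limma 3.58.1 (R 4.3.3) with a mean per group was fitted to all 9 arrays (6 residual degrees of freedom, no covariate), with eBayes, 3 two-sided contrasts and Benjamini-Hochberg adjustment over all genes; a call is an adjusted p below 0.05. The procedure was tested on simulated data. Errors of changes are limma standard errors.

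The members, lists, named-gene rule and tests were chosen with earlier results of these data known, so lists are described by counts and medians and not tested. The rule names, per comparison, up to 4 called GTPases and 6 called other members with the largest change and no overlap, the brightest members, and up to 4 called genes of each surrounding list; further genes are marked or are list members. Alternatives were a fit of the 6 arrays compared, a trended robust prior, centring on array medians, another quantile normalization, brighter genes only, probe sets averaged per gene, the replicate number as a block, each array left out, and, added after seeing the data, probe sets with several symbols. Motifs were searched with Python 3.11.15 and figures drawn with matplotlib 3.10.9.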

Additional observations from a re-analysis of the deposited data

How the results depend on the processing

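Counts of members called against DMSO kept within 1.5 times under the 17 alternatives: with thapsigargin 22 to 23 lower and 2 to 3 higher with each array left out, and with both agents 22 to 27 lower and 0 higher. For forskolin added to thapsigargin the counts are small and moved. Members higher were 2 in the fit of the 6 arrays compared and 2 among genes above the median level, where 10 were lower, with only 11090 genes tested and adjusted over. With each array left out, members higher ran from 0 to 2 and lower from 2 to 6, GTPases higher from 0 to 1 and lower from 1 to 2. Among further interferon-stimulated genes, the thapsigargin counts among genes above the median level were 15 lower and 5 higher; with forskolin added 9 were lower with a trended robust prior, 8 among genes above the median level and 7 with probe sets of several symbols, and signalling genes higher ran from 1 to 4. No called member changed direction in any alternative. Centring on array medians gave 642 higher and 1083 lower over all genes with forskolin added, and among members again 1 and 4; the cause was not tested.

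Whether the replicate numbers pair the samples is not stated in the labels and was not settled by the array values. Deviations from group means correlated between -0.07 and 0.25 for the same number and between -0.30 and 0.25 for different numbers. On the first principal component of these deviations (30.9%), replicate 3 was lowest with DMSO (-14.1), thapsigargin (-7.6) and both agents (-9.0). Highest were replicate 1 with DMSO (14.6) and both agents (11.9) and replicate 2 with thapsigargin (7.18). With the replicate number as a block 22 members were lower and 3 higher with thapsigargin, 4 and 1 with forskolin added, and 24 and 0 with both agents against DMSO. The block took the call from Eif2ak2 with thapsigargin (adjusted p = 0.0549) and from Irf9 and Stat2 with both agents (adjusted p = 0.0575 and 0.066).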

Other observations

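Some relatives of the members lie only on probe sets that carry several symbols, and these were fitted beside the others after the data were seen. The T-cell-specific GTPases Tgtp1 and Tgtp2, relatives of Iigp1, share a pair of probe sets that fell by 0.70 ± 0.13 and 1.82 ± 0.35 with thapsigargin (limma adjusted p = 0.00197 and 0.00262). On the second of them DMSO replicate 1 stood at 6.11 and the other DMSO arrays at 7.48 and 7.61. The GTPase gene Ifi47, which shares its probe set with the olfactory receptor gene Olfr56, fell by 0.70 ± 0.07 with thapsigargin and a further 0.37 ± 0.07 with forskolin added (limma adjusted p = 5.2e-05 and 0.0155). The probe set of Gbp2 and Gbp2b fell by a further 0.40 ± 0.08 with forskolin added (limma adjusted p = 0.0139).

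The very large inducible GTPase Gvin1 shares 4 probe sets with its relatives Gm4070, Gm8979 and Gm8989. Their mean differences from DMSO with thapsigargin lay between 0.10 and 0.18, and 1 of the 4 passed (limma adjusted p = 0.0302). With forskolin added all 4 fell from their values with thapsigargin alone, with log2 changes between -0.47 and -0.40 (limma adjusted p = 0.00132 to 0.00418). A probe set of Ifi211 and Ifi204, of the interferon-inducible DNA-binding family, rose by 0.47 ± 0.11 with thapsigargin (limma adjusted p = 0.00916), beside the rise of Ifi204 on its own probe set. A second probe set of Ifi35, which was not used, had means of 7.03 on the DMSO arrays, 6.73 with thapsigargin and 6.74 with both agents, lower with treatment like the one used.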
